A study of Drosophila melanogaster with 19 samples.

Results

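The mRNAs of the translation initiation and elongation factors were followed through the maternal-to-zygotic transition of the Drosophila melanogaster embryo. The genes were chosen by name alone, as every gene of the deposited table whose symbol starts with eIF or eEF, which gave 51 of 17735 genes. Abundance is given in CPM, the reads of a gene scaled to library size. At least 1 condition reached 10 CPM for 41 of the 51, and 10 stayed under that level throughout. Single whole embryos of H2AvD-RFP flies, which carry a fluorescent histone, were sequenced as polyA RNA. Control embryos had no injection and were taken in nuclear cycle 12 (C12), cycle 13 (C13), early cycle 14 (C14E) and late cycle 14 (C14L). Arrested embryos were injected with double-stranded RNA against CycA, CycB and CycB3, the mitotic cyclins, without the Cdk1 inhibitor Frs, and were taken 15, 30, 50 and 70 min after mitosis 11 (C12-15min, C12-30min, C12-50min and C12-70min). The study asked whether the changes of the transition need the nuclear divisions or go on when they are stopped. Injection and arrest came together in the same embryos and cannot be told apart, and C12-70min embryos were younger than C14L embryos.

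Translation starts when the cap of an mRNA is bound by eIF4E, which with the scaffold eIF4G and the helicase eIF4A recruits the small ribosomal subunit. That subunit carries eIF3, a platform of many subunits, and the ternary complex of eIF2, GTP and the initiator tRNA. After start codon recognition eIF2 leaves with GDP and is recharged by eIF2B, eIF5B joins the large subunit, and eEF1 and eEF2 drive elongation. An egg is loaded by the mother with mRNAs for this machinery, many maternal mRNAs are cleared in the first hours, and the zygotic genome then makes its own.

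The deposited values are log2(CPM + 1) of condition means, over 3 embryos in control C13 and control C14E and 2 embryos elsewhere. They carry no error, so differences between them are described against a 1.5-fold limit and the words rose and fell are kept for genes that passed a test. That test was limma on single embryos of the 6 conditions with 2 embryos, whose whole reads could be worked out where exactly 1 pair of read numbers gave the deposited mean; embryos 1 and 2 below are the deeper and the shallower of a pair. The depths were 39242409 to 57998963 reads. Recovery failed most often for abundant genes and worst in C12-70min, where 13 of the 37 factor genes at 10 CPM or more were solved, against 20 to 25 in the other conditions. Most eIF3 subunits, eEF1, eEF2 and eIF4A at C12-70min therefore have no replicate check.

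The targeted mRNAs were low in 3 of the 4 arrested conditions. CycA stood at 2626 CPM in control C12 and at 14.2, 13.4 and 28.9 CPM in C12-30min, C12-50min and C12-70min, but at 1799 CPM in C12-15min, and the CycB and CycB3 means of C12-15min, 3723 and 1053 CPM, were likewise nearer to the 4745 and 1277 CPM of control C12. The libraries labelled C12-15min also differed from each other in some mRNAs. The gap gene Kr was at 1.35 and 68.8 CPM and the maternal mRNA osk at 264 and 16.5 CPM. Of the other patterning genes, eve was at 6.30 and 21.8 CPM, run at 16.4 and 50.5 CPM and ftz at 2.40 and 41.4 CPM. The maternal mRNAs bcd, at 317 and 326 CPM, and nos, at 108.5 and 104.9 CPM, were close between these libraries. The control C12 embryos differed less in Kr, at 16.5 and 1.83 CPM, and in osk, at 70.3 and 136 CPM, but not in eve, at 22.3 and 5.99 CPM. Adult and follicle genes (Yp1, Yp2, Yp3, Vm26Aa and Cp36) reached 1.88 CPM at most in any condition mean.

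The 51 genes together took 3.61%, 3.83%, 4.62% and 4.6% of reads in the controls from C12 to C14L. In arrested embryos their share was 3.60% in C12-15min, 4.42% in C12-30min, 4.70% in C12-50min and 5.27% in C12-70min. The share was thus highest in the oldest arrested embryos, and most of it came from elongation factors. CPM is a share of the library, so more mRNA of these genes and less mRNA of other genes cannot be told apart. In whole embryos, which were syncytial before cellularisation, fewer nuclei or cells of a type and less RNA in each cannot be told apart either. Per kilobase of exon, eEF1alpha1, which brings aminoacyl-tRNA to the ribosome, was the most abundant of the 51 in control C12, at 5620 CPM/kb, and in C12-70min, at 7950 CPM/kb. The translocase eEF2 followed in control C12 at 1910 CPM/kb, then eEF5, the factor that carries hypusine, at 1840 CPM/kb.

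Against control C12, factor means differed in both directions in the late conditions. Since the whole table holds many genes with almost no reads, each count is set beside the share of all genes and the share of expressed genes, those that reached 10 CPM on either side of the comparison. In control C13, 4 of the 51 were over 1.5-fold higher and 7 lower, where 4.14% of all genes were higher and 11.0% lower (9.7% and 27.6% of expressed genes). In control C14E, 7 were higher and 6 lower (11.7% and 16.6% of all, 17% and 44.0% of expressed genes). In control C14L, 13 were higher, 25.5% of the factors against 19.5% of all and 29.4% of expressed genes, and 4 lower, 7.84% against 16.0% and 40.5%. In C12-15min, 1 was higher and 0 lower (2.76% and 0.75% of all, 3.22% and 1.17% of expressed genes). In C12-30min, 4 were higher and 11 lower (6.99% and 16.1% of all, 11.4% and 42.0% of expressed genes). In C12-50min, 9 were higher and 13 lower (11.5% and 17.2% of all, 17.1% and 46.0% of expressed genes). In C12-70min, 18 were higher, 35.3% of the factors against 16.8% of all and 20.3% of expressed genes, and 13 lower, 25.5% against 18.6% and 50.7%. Of the factors that were themselves expressed by this rule, 10 of 41 were higher and 4 lower in control C14L, or 24.4% and 9.76%, and 15 of 39 higher and 13 lower in C12-70min, or 38.5% and 33.3%. The median difference at C12-70min was 0.34 (log2) over the 51 factors and 0.00 over all genes, and 0.49 over the 39 expressed factors and -0.63 over the expressed genes.

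The conditions also differed as a whole. Over the 3737 genes that stayed at 10 CPM or more in all 8 conditions, the median lay 0.29 (log2) below control C12 in control C14L, 0.12 above it in C12-30min and C12-50min, and 0.13 below it in C12-70min. With this shift taken out, 26 factors were higher and 4 lower in control C14L, 4 higher and 13 lower in C12-50min, and 25 higher and 12 lower in C12-70min. On the same scale 4710 of 17735 genes were higher and 2359 lower in control C14L, 1519 and 3245 in C12-50min, and 3592 and 3101 in C12-70min. The factors that crossed the limit were mostly eIF3 subunits and elongation factors, close to it on both scales.

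**Figure D1:**
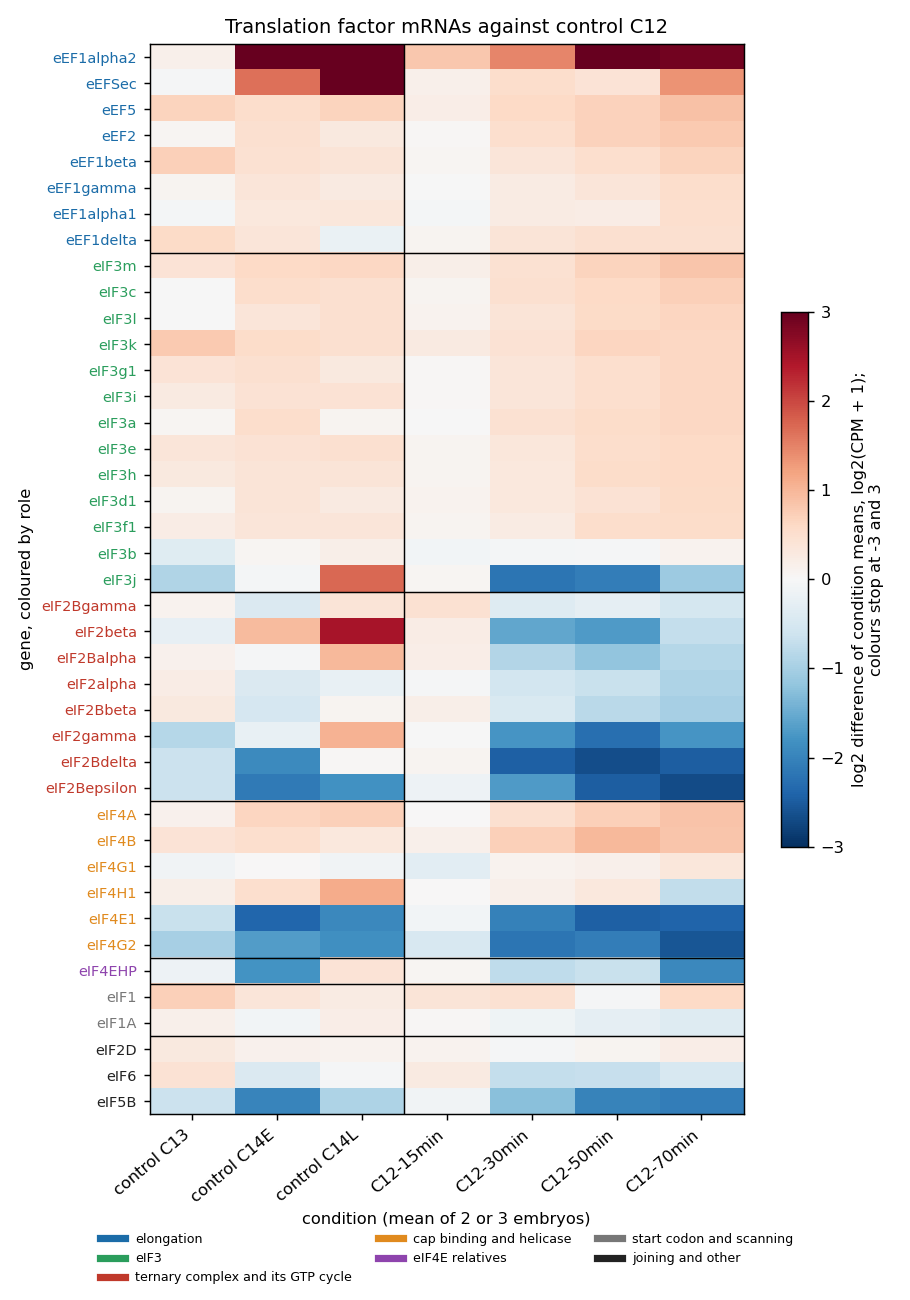
Log2 difference of each condition mean from control C12, on the log2(CPM + 1) scale, for the 41 factor genes that reached 10 CPM; rows are genes grouped and coloured by role, columns are the 7 other conditions, red is higher and blue lower, and colours stop at -3 and 3. Most eIF3 and elongation rows are pale red in late conditions of both courses. The eEF1alpha2 and eEFSec rows are strong red in control C14L, and eIF3j is red there but blue in C12-30min, C12-50min and C12-70min. Most rows of the ternary complex group are blue in these 3 arrested conditions.

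The elongation factors were level or higher in every late condition. eEF1alpha1 (FBgn0284245) stood at 13840, 13250, 17270 and 17640 CPM in the controls from C12 to C14L, and at 13220, 16330, 16280 and 19580 CPM in C12-15min, C12-30min, C12-50min and C12-70min. Relative to control C12 it differed by 0.35 (log2) in control C14L and by 0.50 in C12-70min, both under the 1.5-fold limit. With the median shift removed these differences were 0.64 and 0.63, both past the limit. eEF2 stood at 5850, 6096, 8152 and 7154 CPM in the controls and at 5973, 8233, 9395 and 10050 CPM in arrested embryos. At C12-70min the eEF2 mean was 0.78 (log2) above control C12, past the limit. The eEF5 mean went from 1484 to 2373 CPM in control C14L and to 2726 CPM in C12-70min. The subunits of the exchange factor of eEF1alpha showed the same range at C12-70min, with log2 differences of 0.67 for eEF1beta, 0.52 for eEF1gamma and 0.49 for eEF1delta. In control C14L eEF1delta differed by -0.19, and by 0.10 once the median shift was removed, so its direction there depends on the scale. None of these 6 genes could be solved in single embryos in any tested comparison.

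eEF1alpha2 and eEFSec, at almost no reads in control C12, were the low members of the elongation group. eEF1alpha2 (FBgn0000557; chromosome 3R, 31738468 to 31743306 of BDGP6), the second eEF1alpha gene, was at 0.138 and 0 CPM in the control C12 embryos, at 11.6 and 16.1 CPM in control C14L and at 8.07 and 5.83 CPM in C12-70min. Both embryos of each late condition lay above both control C12 embryos. It rose in control C14L, by 3.78 ± 0.80 (log2, SE; limma adjusted p = 0.00374, 0.00211 to 0.0292 over 16 alternatives), and in C12-70min, by 2.88 ± 0.80 (adjusted p = 0.0135), where leaving out control C12 embryo 2 or C12-70min embryo 1, or testing without a filter, ended the call (adjusted p up to 0.0749). The authors kept reads with a single place in the genome, so reads common to both eEF1alpha genes are not in either value.

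eEFSec (FBgn0034627; 2R, 21384552 to 21386221), which delivers selenocysteine tRNA, was at 0.138 and 0 CPM in control C12, at 21.5 and 17.5 CPM in control C14L and at 1.74 and 1.73 CPM in C12-70min. The late control embryos were far above the arrested ones and neither pair overlapped the other. eEFSec reached 10 CPM in control C14L alone, and only that condition took its mean past the 1 CPM needed for the test. Its calls with control C14L are thus not independent of how it entered. It rose by 4.26 ± 0.32 in control C14L (limma adjusted p = 1.75e-05), and C12-70min lay below control C14L by -2.90 ± 0.32 (adjusted p = 0.000347), a call kept in 16 of 16 alternatives. Against control C12 it rose in C12-70min by 1.36 ± 0.32 (adjusted p = 0.00706). Without control C12 embryo 2 this call ended (adjusted p = 0.0565).

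eIF3 was measured as 16 genes. Of these, 12 form a core whose means never lay under 199.6 CPM, eIF3j is a loosely bound subunit, and the paralogs eIF3d2, eIF3f2 and eIF3g2 were at or near 0 in control C12. The summed mean of the core was 6005, 6496, 7903 and 7618 CPM in the controls and 6206, 7494, 8233 and 8820 CPM in the arrested conditions, each in order of time. In C12-70min all 12 core means lay above control C12, with log2 differences from 0.11 (eIF3b) to 0.84 (eIF3m) and a median of 0.62. In control C14L all 12 lay above as well, from 0.08 (eIF3a) to 0.62 (eIF3m), with a median of 0.40. The core subunits therefore stayed within 1 log2 unit of control C12 in both. Of the 13 eIF3 genes that reached 10 CPM, 9 were over 1.5-fold higher in C12-70min and 1, eIF3j, lower (20.3% and 50.7% of expressed genes). In control C14L 2 were higher, eIF3m and eIF3j, and 0 lower (29.4% and 40.5%). With the median shift removed, eIF3c, eIF3e, eIF3f1, eIF3h, eIF3i, eIF3k and eIF3l also passed in control C14L, by 0.66 to 0.78, so this contrast depends on the scale.

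Single embryos were available for a few of the core. eIF3f1 was at 314 and 371 CPM in control C12, 441 and 446 in control C14L, and 468 and 521 CPM in C12-50min, with no overlap between control C12 and either late pair. It rose in C12-50min by 0.53 ± 0.12 (limma adjusted p = 0.0134) and in control C14L by 0.38 ± 0.12 (adjusted p = 0.0316). The call in control C14L was made in 12 of 17 alternatives and was lost without control C12 embryo 1, without either control C14L embryo, without limma's trend and with each embryo centred on the median of its solved genes (adjusted p up to 0.166). Calls for the rise in C12-50min were also made for eIF3g1, eIF3h, eIF3k and eIF3m, by 0.51 to 0.67, and in C12-30min for eIF3m, by 0.46. Without control C12 embryo 2 none of the calls against C12-50min was left, and removing the median shift ended those of eIF3g1 and eIF3k in C12-50min and of eIF3m in C12-30min (adjusted p = 0.0578, 0.0637 and 0.0861). Of the exonic bases of eIF3h 16.8% are shared with another gene, on the opposite strand, and whether counting used strand is not given in the sources used here.

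eIF3j (FBgn0027619; 2R, 9968929 to 9970897) lay outside the range of the core. Its embryos were at 26.8 and 48.8 CPM in control C12, 145 and 110 in control C14L, 8.95 and 6.07 CPM in C12-30min, 10.01 and 6.25 CPM in C12-50min, and 15.4 and 19.2 CPM in C12-70min. The embryos labelled C12-15min were far apart, at 65.6 and 13 CPM. Every late control embryo was thus above, and every arrested embryo from C12-30min on below, both control C12 embryos. C12-70min lay below control C14L by -2.80 ± 0.65 (limma adjusted p = 0.00844), a call lost without the deeper embryo of either condition (adjusted p up to 0.0644). The rise in control C14L was 1.77 ± 0.66 (adjusted p = 0.0462) and the fall in C12-30min -2.15 ± 0.66 (adjusted p = 0.0486), and these were called in 5 and 4 of 17 alternatives. Among control means eIF3j was at 19.6 CPM in C13 and 36.0 CPM in C14E, so it was highest in C14L among the controls.

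**Figure D2:**
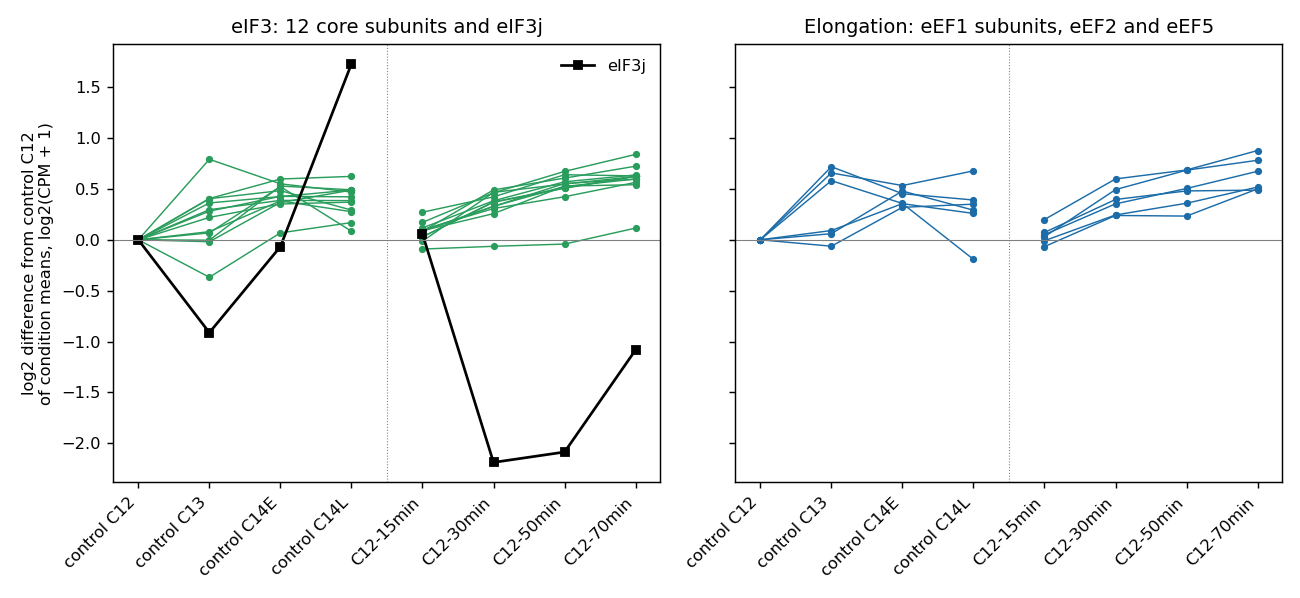
Log2 difference of condition means from control C12, on the log2(CPM + 1) scale, for the 12 eIF3 core subunits in green with eIF3j in black (left) and for 6 elongation factors in blue (right); each line is a gene, with the controls left and the arrested conditions right of the dotted line. At C12-70min the core lines end between 0.11 and 0.84, while eIF3j ends at -1.08.

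The genes of the ternary complex and its GTP cycle were lower in late arrested embryos than in late control embryos by almost every mean. Of its 9 genes, 3 were over 1.5-fold higher and 1 lower in control C14L than in control C12, whereas 0 were higher and 7 lower in C12-70min. For comparison, 19.5% of all genes were higher and 16.0% lower in control C14L, and 16.8% and 18.6% in C12-70min, where 50.7% of expressed genes were lower. Against control C14E, which is nearer in age, 0 of the 9 were higher and 3 lower in C12-70min. There 7.5% of all genes were higher and 10.7% lower (5.92% and 29.0% of expressed genes). The summed eIF2 mean (alpha, beta and gamma) was 262, 241, 249 and 506 CPM in the controls from C12 to C14L. In C12-70min it was 121 CPM, so among the controls only C14L was well above C12.

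eIF2beta (FBgn0004926; 3L, 12525093 to 12526731), which helps to hold the initiator tRNA, was at 29.4 and 45.1 CPM in control C12 and at 215 and 206 CPM in control C14L. In arrested embryos it was at 14.1 and 9.78 CPM in C12-30min, 13.5 and 8.01 CPM in C12-50min, and 21.2 and 23.7 CPM in C12-70min. The late control embryos were several times above all others, and the arrested ones from C12-30min on were below both control C12 embryos. It rose in control C14L by 2.497 ± 0.52 (limma adjusted p = 0.0035, 0.000294 to 0.0304 over 17 alternatives). C12-70min lay below control C14L by -3.17 ± 0.51 (adjusted p = 0.00181, 0.000244 to 0.0195 over 17 alternatives), the largest difference between these conditions among the 18 factors tested. Against control C12, the difference in C12-70min was -0.68 ± 0.51 (adjusted p = 0.28), which did not pass.

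eIF2gamma (FBgn0263740; 3R, 15257844 to 15263458), the GTP-binding subunit, was at 66.3 and 102 CPM in control C12, 170 and 181 in control C14L, and 20.0 and 28.3 CPM in C12-70min. C12-70min embryos were lower than those of either control, with no overlap. The fall against control C12 was -1.75 ± 0.49 (limma adjusted p = 0.0139), lost without control C12 embryo 2 or C12-70min embryo 1, without a filter and with each embryo centred (adjusted p up to 0.235), and C12-70min was below control C14L by -2.83 ± 0.49 (adjusted p = 0.00242), kept in 17 of 17 alternatives. The higher level of control C14L over control C12, 1.08 ± 0.49, did not pass (adjusted p = 0.091). Of its exonic bases 16.0% are shared with Su(var)3-9 on the same strand, and the counting could have left out reads there.

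eIF2alpha, the subunit whose phosphorylation slows initiation, was at 133 and 149 CPM in control C12, 116 and 124 in control C14L, and 73.6 and 75.0 CPM in C12-70min. The C12-70min embryos were lowest and close together. It fell in C12-70min against control C12 by -0.91 ± 0.20 (limma adjusted p = 0.00505) and was -0.69 ± 0.21 lower than in control C14L (adjusted p = 0.0243), the latter lost when any 1 embryo of the compared conditions was left out, and without the trend (adjusted p up to 0.4). With each embryo centred on its solved genes, both differences turned positive and were not called. Per kilobase of exon, the means of eIF2alpha, eIF2beta and eIF2gamma were 92.8, 33.0 and 38.2 CPM/kb in control C12, 79.2, 187 and 79.8 CPM/kb in control C14L, and 48.9, 19.9 and 10.9 CPM/kb in C12-70min. eIF2alpha was thus the highest of these 3 mRNAs in control C12 and C12-70min, and eIF2beta in control C14L.

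eIF2B, the exchange factor that recharges eIF2, has 5 subunit genes, and their means summed to 208, 90.6, 169 and 61.1 CPM in control C12, control C14E, control C14L and C12-70min. eIF2Bdelta (FBgn0034858) was at 27.5 and 44.5 CPM in control C12, 42.3 and 31.2 in control C14L, and 4.81 and 6.56 CPM in C12-70min. Control C12 and control C14L overlapped, and the arrested embryos lay far below both. It fell in C12-70min against control C12 by -2.44 ± 0.69 (limma adjusted p = 0.015) and was lower than in control C14L by -2.49 ± 0.69 (adjusted p = 0.018), called in 13 and 12 of 17 alternatives. Testing without a filter ended both calls. Each embryo of control C14L and C12-70min was needed for the second call (adjusted p up to 0.107), and control C12 embryo 2 and C12-70min embryo 1 for the first, which centring each embryo also ended (adjusted p up to 0.0974). Its control C14E mean was 8.80 CPM, so a low point also occurred in the controls.

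eIF2Bepsilon, the catalytic subunit, fell in both courses. Its embryos were at 84.1 and 102 CPM in control C12, 31.2 and 20.2 in control C14L, and 10.4 and 16.9 CPM in C12-70min. The fall was -2.71 ± 0.49 in C12-70min (limma adjusted p = 0.0022, called in 17 of 17 alternatives). In control C14L it was -1.84 ± 0.49 (adjusted p = 0.0121), lost without control C12 embryo 2 or control C14L embryo 2 (adjusted p up to 0.0847). The C12-70min against control C14L difference of -0.87 ± 0.49 did not pass (adjusted p = 0.164).

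eIF2Balpha was at 18.4 and 22.2 CPM in control C12, 46.6 and 34.9 in control C14L, and 10.8 and 10.8 CPM in C12-70min, which was below control C14L by -1.81 ± 0.35 (limma adjusted p = 0.00398; 0.0502 without control C14L embryo 1). eIF2Bbeta differed in the same comparison by -1.07 ± 0.25 (adjusted p = 0.00853), lost without control C14L embryo 1 and with each embryo centred. eIF2Bgamma, at 13.6 and 13.4 CPM in control C12 and 9.53 and 8.39 CPM in C12-70min, passed in none of the 6 comparisons. All 5 subunits were therefore lower in C12-70min than in control C14L by their means, and 3 of the 5 by the test.

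**Figure D3:**
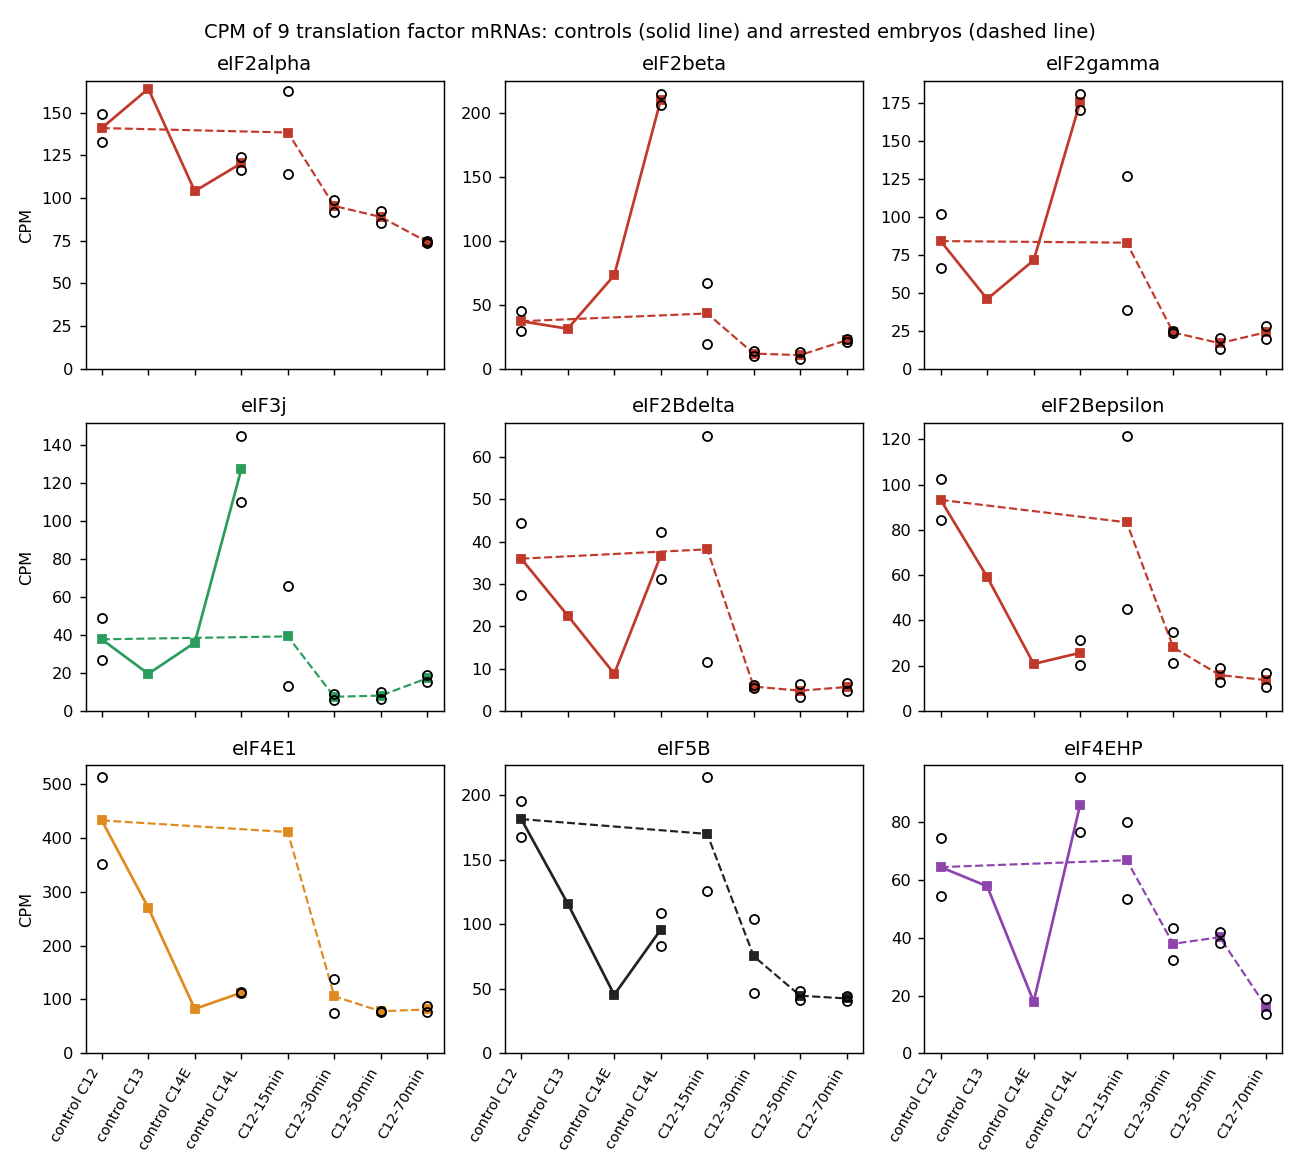
CPM of 9 factor mRNAs on linear axes that start at 0; squares are condition means, the solid line joins the controls and the dashed line joins control C12 to the arrested conditions, and open circles are single embryos where their reads could be solved. For eIF2beta the control C14L embryos are at 215 and 206 CPM and the C12-70min embryos at 21.2 and 23.7 CPM, whereas eIF4E1 is low in both, with means of 113 and 81.4 CPM.

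Among the cap-binding and helicase factors, eIF4E1 (FBgn0015218; 3L, 9399618 to 9402460), the main cap-binding protein, fell in both courses. Its embryos were at 352 and 513 CPM in control C12, 114 and 111 in control C14L, 74.2 and 138 CPM in C12-30min, 79.4 and 76.5 CPM in C12-50min, and 87.0 and 75.9 CPM in C12-70min. All embryos of the later conditions lay below both control C12 embryos. It fell by -1.91 ± 0.29 in control C14L (limma adjusted p = 0.00097) and by -2.37 ± 0.31 in C12-70min (adjusted p = 0.00115), both called in 17 of 17 alternatives. The difference between C12-70min and control C14L was -0.47 ± 0.31 (adjusted p = 0.242), which did not pass. The control means were 270 CPM in C13 and 82.3 CPM in C14E.

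eIF4A and the scaffold eIF4G1 were level or higher. eIF4A stood at 1785, 1957, 2790 and 2914 CPM in the controls and at 1801, 2489, 2917 and 3247 CPM in the arrested conditions, log2 differences of 0.71 in control C14L and 0.86 in C12-70min. eIF4G1 (chromosome 4) had means of 415, 388 and 526 CPM in control C12, control C14L and C12-70min, and its embryos were apart by 1.84-fold in C12-15min and 1.78-fold in C12-30min. Neither gene could be tested against control C12. eIF4B, which stimulates the helicase, was at 68.4 and 49.2 CPM in control C12 and 108 and 124 CPM in C12-50min. That difference, 0.98 ± 0.38, did not pass (limma adjusted p = 0.067).

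The related scaffold eIF4G2, whose known role in flies is in male germ cells, followed eIF4E1 rather than eIF4G1. It was at 214 and 146 CPM in control C12, 56.5 and 42.6 in control C14L, and 27.0 and 32.4 CPM in C12-70min. It fell in C12-70min by -2.54 ± 0.49 (limma adjusted p = 0.00276, called in 17 of 17 alternatives) and in control C14L by -1.83 ± 0.49 (adjusted p = 0.0117). The second call was lost without control C12 embryo 1 or control C14L embryo 2 (adjusted p up to 0.0773).

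eIF4H1, a further helicase partner, had the highest mean in control C14L, with 401, 451, 570 and 872 CPM in the controls and 402, 444, 503 and 238 CPM in the arrested conditions. Its embryos in C12-50min were at 691 and 315 CPM, a 2.20-fold spread around a mean of 503 CPM. Embryo values for the other conditions could not be solved, so the 238 CPM of C12-70min has no replicate check. eIF4H2 stayed at or below 1.01 CPM.

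Of the eIF4E relatives, eIF4EHP (FBgn0053100), which binds caps without recruiting eIF4G and represses translation, was the one above 10 CPM. It was at 74.7 and 54.4 CPM in control C12, 95.6 and 76.7 in control C14L, and 18.8 and 13.4 CPM in C12-70min. The arrested embryos lay far below both controls, which were next to each other without overlap. It fell in C12-70min against control C12 by -1.94 ± 0.30 (limma adjusted p = 0.0014) and was lower than in control C14L by -2.36 ± 0.30 (adjusted p = 0.000589), the latter called in 17 of 17 alternatives and the former lost with each embryo centred (adjusted p = 0.157). In control C14E its mean was 17.9 CPM, as low as in C12-70min. The other relatives, eIF4E3, eIF4E4, eIF4E5, eIF4E6 and eIF4E7, stayed between 0 and 0.723 CPM in every condition mean.

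eIF5B, the GTPase of subunit joining, fell in arrested embryos. It was at 168 and 195 CPM in control C12, 109 and 82.8 in control C14L, 48.1 and 41.1 CPM in C12-50min and 40.3 and 44.7 CPM in C12-70min. None of these later embryos reached the control C12 values. The fall in C12-70min was -2.07 ± 0.38 (limma adjusted p = 0.00235, called in 17 of 17 alternatives). The difference in control C14L, -0.92 ± 0.37, did not pass (adjusted p = 0.0625), while its control C14E mean was 45.3 CPM. Set directly against control C14L, C12-70min was lower by -1.14 ± 0.38 (limma adjusted p = 0.0351), called in 9 of 17 alternatives. Testing without a filter, centring each embryo, or leaving out any 1 embryo of control C12, control C14L or C12-70min ended this call.

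Of the remaining factors, eIF2D, which can deliver initiator tRNA without GTP, stood between 57.2 and 71.7 CPM in all condition means and overlapped between conditions in all 6 comparisons of embryos. eIF6, which keeps the subunits apart, went from 31.5 and 37.7 CPM in control C12 to 24.3 and 24.7 CPM in C12-70min (limma adjusted p = 0.216), and its means were 0.72 and 0.69 (log2) lower than control C12 in C12-30min and C12-50min, past the 1.5-fold limit but not called. The scanning factors eIF1 and eIF1A passed in no tested comparison. eIF1A means were 308, 355 and 233 CPM in control C12, control C14L and C12-70min, and those of eIF1 were 146, 175 and 220 CPM, with 239 CPM in control C13. The eIF1 means of C13 and C12-70min lay past the limit, by 0.70 and 0.59 (log2), and have no test.

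The low genes hold 2 that need a note. eIF5, the GTPase activator of eIF2, was listed at 0.24 to 0.862 CPM, but 80.8% of its exonic bases are shared on the same strand with the annotated gene CG46312, itself listed at 0 in every condition. Reads over shared bases may have been given to neither gene, so the eIF5 value is uncertain and no level of its mRNA can be read from it. eIF3f2 (FBgn0033069; 2R, 6200853 to 6201956) was at 0.172 and 0.0435 CPM in control C12, 3.18 and 4.63 in control C14L, and 5.66 and 11.96 CPM in C12-70min. Its late embryos lay above both control C12 embryos. It rose in C12-70min by 3.07 ± 0.54 (limma adjusted p = 0.00207, called in 16 of 16 alternatives). The abundant zygotic gene Ptr lies on the other strand and points away from eIF3f2, with 4532 bases between their starts, with means of 0.276, 962 and 619 CPM in control C12, control C14L and C12-70min, and its part in the eIF3f2 reads was not tested. eIF3d2, eIF3g2 and eIF4E4 were at 0.0207 CPM or less.

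Set directly against control C14L, C12-70min had 2 of the 51 factors over 1.5-fold higher (eEF1delta and eIF3f2) and 16 lower, or 3.92% and 31.4% of them, where 12% of all genes were higher and 21.4% lower (23.7% and 48.2% of expressed genes, against 1 and 16 of the 41 expressed factors, or 2.44% and 39.0%). The 16 comprised all 8 eIF2 and eIF2B subunits together with eIF3j, eIF4EHP, eIF4G2, eIF4H1, eIF5B, eIF1A, eEFSec and eEF1alpha2. The eIF3 core and the main elongation factors lay within 1.5-fold, apart from eEF1delta. Against control C14E, which is nearer in age, 1 factor was higher and 8 lower (7.5% and 10.7% of all, 5.92% and 29.0% of expressed genes). The 8 comprised eIF2beta, eIF2gamma, eIF2Balpha, eIF3j, eIF4G2, eIF4H1, eEF1alpha2 and eIF4E5, the last of them near 0 throughout. The other eIF2 and eIF2B subunits lay within 1.5-fold of control C14E. Within the courses, control C14L had 11 factors higher and 0 lower than control C14E (20.0% and 9.16% of all, 39.0% and 22.1% of expressed genes), and C12-70min had 5 higher and 4 lower than C12-30min (13.5% and 10.4% of all, 12.1% and 31.2% of expressed genes). eIF2beta and eIF3j were among the 5, going from 11.9 to 22.4 CPM and from 7.51 to 17.3 CPM between these arrested means.

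**Figure D4:**
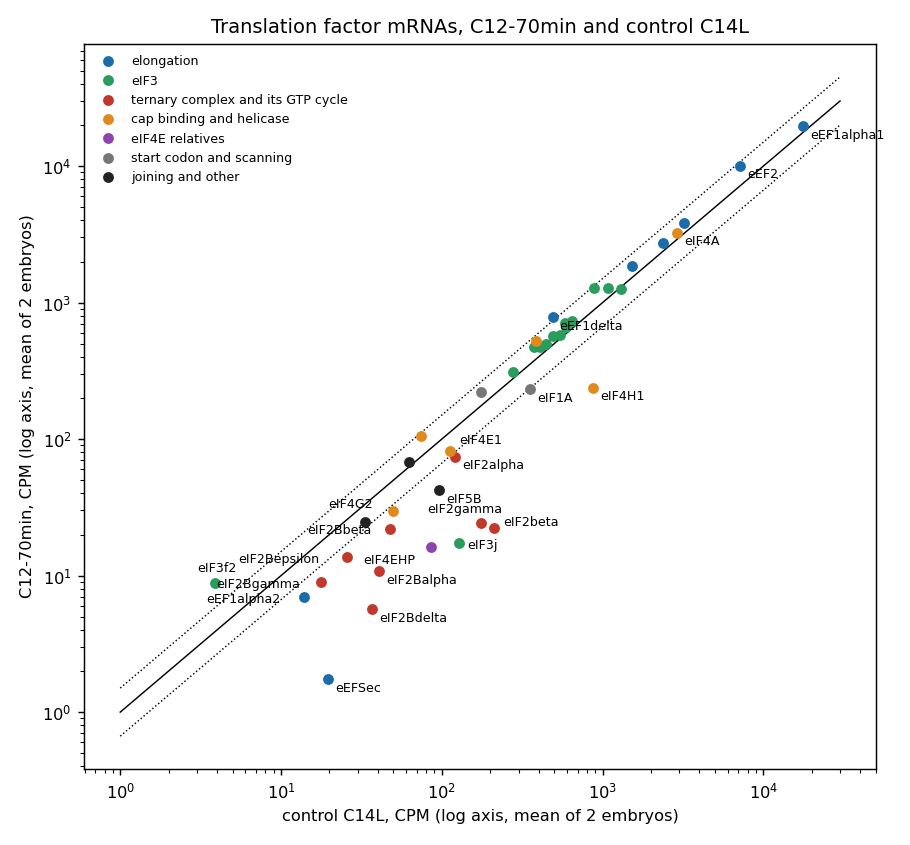
Mean CPM in C12-70min (vertical) against control C14L (horizontal), both on log axes, for the factors at 1 CPM or more in both; points are genes coloured by role, the solid line is equality and the dotted lines are 1.5-fold. The abundant elongation and eIF3 genes lie along the solid line, and the 8 eIF2 and eIF2B genes all lie below the lower dotted line.

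In limma on the recovered embryos, 8 of 25 factors rose and 3 fell in control C14L against control C12, where 24.8% of the genes tested rose and 28.9% fell. The 8 include eEFSec, which passed the filter only through control C14L. In C12-15min 0 of 22 passed in either direction (0 of 6669 genes, 0.0%), with 0 factors and 17 genes at an unadjusted p under 0.05. In C12-30min 1 rose and 7 fell of 28 (3.11% and 18.5% of genes), and in C12-50min 6 rose and 11 fell of 26 (12.2% and 29.8%). In C12-70min 3 rose and 9 fell of 18 (16.1% and 40.7%), and against control C14L 0 were higher and 10 lower of 18 (10.8% and 35.9%). Both embryos lay above both of control C12 for 14 of the tested factors and below for 5 in control C14L (40.8% and 44.1% of genes), for 2 and 0 in C12-15min (8.83% and 5.5%), for 12 and 15 in C12-30min (29.8% and 43.2%), for 9 and 15 in C12-50min (35.9% and 46.1%) and for 3 and 14 in C12-70min (29.8% and 55.7%). Both C12-70min embryos lay above both of control C14L for 1 factor and below for 16 (24.5% and 61.4%). The abundant factors are missing from these counts, and the genes that could be solved differ between comparisons.

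These counts depended on single embryos. The C12-30min calls were lost altogether (0 and 0) without either control C12 or either control C14L embryo, without C12-30min embryo 1 or without either C12-70min embryo, and 0 rising and 2 falling were left without either C12-50min embryo. In C12-50min 0 and 0 were left without control C12 embryo 2, 1 and 5 without control C12 embryo 1, and 1 and 2 without C12-50min embryo 2. Of the calls in C12-70min, 1 and 6 were left without control C12 embryo 2, and of those in control C14L, 3 and 1 without control C14L embryo 2. Below control C14L, 4 of the 10 were left without control C14L embryo 1 and 6 without C12-70min embryo 1. Without either embryo labelled C12-15min, 4 rose and 10 fell in C12-30min, and 3 rose and 11 fell in C12-70min.

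Of 16 other genes of translation and its control, 2 were over 1.5-fold higher and 7 lower in control C14L than in control C12, and 0 higher and 7 lower in C12-70min. In these comparisons 19.5% and 16.8% of all genes were higher, and 16.0% and 18.6% lower. Of expressed genes 29.4% and 20.3% were higher, and 40.5% and 50.7% lower. The lower counts were thus near the share of expressed genes and above that of all genes. The termination factor eRF3 was at 504 CPM in control C12, 271 in control C14L and 45.3 CPM in C12-70min, whereas its partner eRF1 was at 394, 229 and 369 CPM. The poly(A)-binding protein gene pAbp was at 722 CPM in control C12 and 1053 CPM in control C14L, and its C12-70min embryos were at 71.4 and 100 CPM. S6k, a kinase of the TOR pathway, was at 83.7 and 119 CPM in control C12, 254 and 214 in control C14L, and 16.5 and 25.8 CPM in C12-70min. The eIF2alpha kinases had lower means in control C14L than in C12-70min. PEK was at 474 CPM in control C12, 36.6 in control C14L and 403 CPM in C12-70min, and Gcn2 at 183, 22.6 and 97.4 CPM. Thor, the 4E-BP that holds eIF4E1, was at 13.3, 30.8 and 17.5 CPM in these conditions. cup, which shares all its exonic bases with CG34310, was listed at 0 throughout and no level can be read from it.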

How the data were processed

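Per the labels, 19 single embryos were sequenced as polyA RNA; 18 enter the table, since the authors left out 1 control C12 embryo. The authors trimmed reads with Trim Galore 0.6.0, aligned them with STAR 2.5.3a to dm6 (BDGP6), keeping unique alignments, counted genes with featureCounts of Subread 1.6.0, scaled them to CPM with DESeq2 and deposited the log2 values of condition means, log2(CPM + 1), with 9 decimals, or 8 from 10 upward. From these decimals, whole reads of both embryos were solved for the 6 conditions with 2 embryos. On simulated data 1773 of 1800 values gave 1 solution and all of these were right. In the real data, 65.0% of the genes at 10 CPM or more were solved in C12-70min, and 89.2% to 93.0% in the other conditions. The 1773 of 1800 is therefore no measure of how often reads were solved in these embryos. limma 3.58.1 (R 4.3.3) with a mean-variance trend was run on log2(CPM + 1) of the 12 embryos, for genes with a mean of at least 1 CPM, with Benjamini-Hochberg adjustment over all genes of a comparison at 0.05; a gene entered a comparison where all 4 of its embryos were solved. On simulated data it found 195 of 200 genes changed 4-fold in C12-70min against control C12 (5629 genes), with 4.22% false calls. All simulated embryos had the same noise, whereas some real pairs lay further apart, such as 5.635-fold for eIF2Bdelta in C12-15min. The simulation is therefore no measure of power in these data. A value of ± is a standard error. The labels do not say that embryos of a condition came from separate crosses, so p-values measure the spread between these embryos. Each gene had a spread shared by all its solved conditions. A standard error or p-value therefore also carries the spread of pairs outside its comparison, C12-15min included. Condition means carry no error and were not tested. Sensitivity was tried with other pseudocounts, filters, limits, centring and embryos left out. Exon lengths, overlaps and coordinates are from Ensembl release 115 on BDGP6; whether the authors counted by strand is not given in the sources used here. Values are given for factors at 10 CPM or more among the 5 largest rises or falls from control C12 to control C14L or C12-70min, for core subunits and for paralog pairs; other factors were named after their values were seen. Members and lists were chosen with earlier results of these data known. Sequences of these genes were not analysed here.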

Additional observations from a re-analysis of the deposited data

How the results depend on the processing

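The embryo values rest on 2 embryos a condition, on genes whose reads could be solved, and on condition means for the rest, so differences of factors whose reads could not be solved were not checked by replicates. No paired analysis was possible because the condition columns carry no replicate numbers. No difference between condition means turned its direction past the limit. With a 2-fold limit, 0 factors were higher and 1 lower in control C13 than in control C12, 3 higher in control C14E, 8 higher in control C14L, 0 higher in C12-15min, 2 higher in C12-30min, 2 higher in C12-50min, and 3 higher and 8 lower in C12-70min. With that limit 3 were higher and 1 lower in C12-70min than in C12-30min, 1 higher and 10 lower than in control C14L, and 0 higher and 4 lower than in control C14E. Against control C12, a pseudocount of 0.1 gave 5 higher in C12-15min and 8 in C12-30min, and one of 0.001 gave 11 higher in control C14E, 5 in C12-15min, 9 in C12-30min and 14 in C12-50min. Between later conditions, a pseudocount of 0.1 gave 1 lower in control C14L than in control C14E, 9 higher in C12-70min than in C12-30min and 4 higher than in control C14L, and one of 0.001 gave 2, 9 and 4, and 3 higher in C12-70min than in control C14E. Counting only expressed genes (10 CPM or more on either side), 4 were higher in control C14E, 0 in C12-15min and 2 in C12-30min than in control C12, and 2, 1 and 0 in C12-70min than in C12-30min, control C14L and control C14E. Centring condition means gave 11 higher in control C14E, 26 in control C14L and 4 in C12-50min.

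For limma, a 10 CPM filter gave 5 factors up of 22 in control C14L, 2 up of 25 in C12-30min and 0 up of 15 in C12-70min. This filter removed eEF1alpha2, eEFSec and eIF3f2 untested, which were the 3 that rose in C12-70min. They therefore have 16 alternatives where others have 17. No filter gave 0 up and 0 down in C12-30min and 2 up and 7 down in C12-50min, and no trend gave 5 up in control C14L, 0 up and 3 down in C12-30min and 1 up in C12-50min. Centring each embryo on 3882 genes solved in all 12 gave 11 up and 3 down in C12-30min, 11 up and 5 down in C12-50min, 5 up and 4 down in C12-70min, and 2 above control C14L. All tested genes moved likewise, with 2589 up and 874 down of 6761 in C12-30min, 3376 and 1112 of 6738 in C12-50min, and 2278 and 1098 of 5629 in C12-70min. The median of those genes was 0.757 to 1.36 (log2) below control C12 in the embryos of C12-30min, C12-50min and C12-70min, where the median of abundant genes lay within 0.13. Under this centring eIF2Bbeta turned to 0.36 in C12-50min and 0.26 in C12-70min, and eIF2alpha to 0.52 and 0.34, and to 0.25 against control C14L, none of them called. An alternative chosen after seeing the data took out the median shift of the abundant genes instead. It gave 12 up and 3 down in control C14L and 0 up and 9 down in C12-30min. All tested genes gave 2107 up and 1556 down of 6672 in control C14L, and 81 and 1491 of 6761 in C12-30min. This alternative kept 55 of 58 factor calls and added 7. Without 1 embryo in turn, where the lone embryo is assumed to vary like the other conditions, the factors up and down ranged from 3 to 10 and 1 to 4 in control C14L, 0 to 4 and 0 to 10 in C12-30min, 0 to 7 and 0 to 12 in C12-50min, and 1 to 3 and 6 to 11 in C12-70min, and those lower than in control C14L from 4 to 11. In 0 of these was a factor higher than in control C14L.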
